A study of Mus musculus with 12 samples.

Results

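The ARF-MDM2-p53 axis was followed through 9 genes, chosen by symbol as members of the pathway, with no threshold on measured values but with earlier results of these data known: Cdkn2a, Mdm2, Mdm4, Trp53 and the p53 target genes Cdkn1a, Ccng1, Zmat3, Sesn1 and Trp53inp1. All 9 were found among the 24982 gene symbols listed for each library, and all 9 passed the filter on low values in every comparison. Polyadenylated RNA had been sequenced from B lymphocytes of mouse spleens at 6 weeks of age, in 12 directional libraries of 4 per group. The first group was WT (C57BL/J6). The second was Eμ-Myc, a transgene in which an immunoglobulin heavy-chain enhancer drives Myc in cells of the B lineage. The third was Eμ-Myc; PRPS2 KO, called the knockout group here, which carried the same transgene and lacked PRPS2, 1 of the synthetases that supply phosphoribosyl pyrophosphate, from which nucleotides are built. The labels number the libraries as biological replicates and do not give the sex of the mice, how PRPS2 was deleted, whether animals were pooled, or whether any mouse had lymphoma. If libraries of a group did not come from separate animals, the p-values measure technical spread.

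ARF is a protein encoded by Cdkn2a that binds MDM2. MDM2 marks p53 for degradation, and its relative MDM4 holds back p53 as an activator of transcription, so that binding of MDM2 by ARF frees p53. Active p53 in turn switches on genes of growth arrest, cell death and metabolism, among them Mdm2 itself, which closes a feedback loop. In Eμ-Myc mice the axis is known as a barrier to lymphoma, and lymphomas of this model often lose ARF or p53.

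Promoter windows from RefSeq (GRCm38.p6, the assembly that the submitters' processing notes call mm10) were matched by symbol for 7 of the 9 genes. Zmat3 and Trp53inp1 were not matched. Each window ran from 250 bases before to 50 bases after an annotated start, and both strands were searched for the E-box CACGTG, the sequence that Myc with its partner Max is known to bind, and for the p53 half-site, a motif of 10 bases of which p53 binds a pair. Among all 32851 windows, 7.15% held CACGTG, 8.36% held an exact half-site and 1.09% held a pair with at most 1 mismatch in all and a spacer of at most 13 bases. The same bases can belong to a single half-site and to a pair.

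The Trp53 site is shown because it was the only CACGTG among the windows of the 7 genes, and the Ccng1 and Cdkn1a sequences because theirs were the only windows with a pair of half-sites. Capitals mark the E-box in Trp53, which begins at base 11 counted from the start as 1, and the half-sites in the others. In Ccng1 the pair lay 195 bases before the start, without a spacer and with 1 mismatch. In Cdkn1a, whose upstream start is shown, exact half-sites lay 73 and 51 bases before the start with 12 bases between them, and the second formed a pair without a spacer and with 1 mismatch together with the 10 bases that follow it.
Trp53, chr11:69580357-69580386, plus strand: actttcccctccCACGTGctcaccctggct
Ccng1, chr11:40755457-40755486, minus strand: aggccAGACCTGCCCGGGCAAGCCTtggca
Cdkn1a, chr17:29090729-29090978, plus strand: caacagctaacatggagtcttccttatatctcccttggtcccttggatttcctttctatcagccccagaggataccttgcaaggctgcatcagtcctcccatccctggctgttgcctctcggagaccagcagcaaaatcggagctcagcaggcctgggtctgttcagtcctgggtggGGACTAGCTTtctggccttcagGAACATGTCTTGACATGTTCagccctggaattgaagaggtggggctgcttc

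Single exact half-sites were also found in the windows of Trp53, 75 bases before the start, of Mdm2, 186 bases before the start, and of the second start of Sesn1, 173 bases before it. These are matches of letters, and no match says only that these letters are not in the window. Cdkn2a has 2 annotated starts, shown because the coverage of the gene adds them up. ARF is known to be made from the upstream start and the cell cycle inhibitor p16INK4a from the downstream one, with later exons in common. The deposited values are per gene, so ARF and p16INK4a cannot be told apart. The 250 bases before each start held neither motif and are in lower case throughout. Over the 300 bases of its window, the upstream start had 77% G and C with 45 CpG pairs and the downstream start 60.3% with 12.
Cdkn2a, upstream start, chr4:89294620-89294869, minus strand: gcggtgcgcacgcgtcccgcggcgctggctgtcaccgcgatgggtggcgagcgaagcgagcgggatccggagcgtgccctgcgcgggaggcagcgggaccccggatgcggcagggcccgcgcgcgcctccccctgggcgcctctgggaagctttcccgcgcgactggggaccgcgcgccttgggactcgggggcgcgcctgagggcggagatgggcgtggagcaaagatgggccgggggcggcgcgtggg
Cdkn2a, downstream start, chr4:89282193-89282442, minus strand: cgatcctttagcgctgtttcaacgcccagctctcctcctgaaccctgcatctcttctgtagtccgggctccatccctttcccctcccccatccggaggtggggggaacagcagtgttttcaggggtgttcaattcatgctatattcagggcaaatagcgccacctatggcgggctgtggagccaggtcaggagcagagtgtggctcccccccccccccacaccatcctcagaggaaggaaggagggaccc

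Values are coverages per gene as deposited, each divided by 1 factor per library so that libraries can be compared, and are called scaled coverage. They have no unit of reads, the depth behind them is unknown, and values of different genes are not set against each other as levels. Summed over genes, a library held a coverage of 1277305.5 to 1885768.9, with 14900 to 16231 genes above 0. For WT, Eμ-Myc and knockout libraries respectively, Prps2 averaged 128 ± 18.7, 245 ± 35.9 and 16.9 ± 1.41 (SD, n = 4 each) and Myc 278 ± 54.7, 1904 ± 306 and 2211 ± 946, so both followed the labels. All 6 markers of B cells were above 0 in every library, with summed scaled coverage of 5944 to 11369, 6677 to 8319 and 5895 to 6845 in these groups. Markers of other cells were present as well. In the same order the 8 T-cell markers summed to 511 to 2973, 104 to 149 and 28.9 to 680, the 6 NK-cell markers to 328 to 1377, 85.7 to 238 and 19.9 to 569, and the 8 myeloid markers to 8227 to 25757, 5719 to 16898 and 1301 to 15769, with none of these markers at 0 in any library. The 6 markers of early B cells summed to 55.8 to 407, 56.7 to 93.0 and 33.3 to 143, and the 4 platelet markers to 76.7 to 379, 68.3 to 139 and 31.9 to 129. Of the early B-cell markers, 4 of 6 were called higher in each transgenic group against WT, with list medians of 2.26 for Eμ-Myc and 1.63 for the knockout group, and 1 was called lower in Eμ-Myc. All 4 platelet markers were called lower in the knockout group against WT, with a median of -2.14, and 1 of 4 in Eμ-Myc against WT. The part of these cells in the results was not tested. In the knockout group, libraries 1 and 2 had T-cell sums of 635 and 680 and Myc at 1125 and 1724, while libraries 3 and 4 had T-cell sums of 31.6 and 28.9 and Myc at 2871 and 3123. The early B-cell sums were 129 and 143 in libraries 1 and 2 and 36.8 and 33.3 in libraries 3 and 4, and the sums of 6 plasma-cell markers were 507 and 599 and 233 and 261. In Eμ-Myc against WT 1 plasma-cell marker was called higher and 2 lower, and none of the 6 erythroid markers was called in any comparison. In such bulk RNA, fewer cells of a type and less RNA per cell cannot be told apart.

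The first comparison, Eμ-Myc against WT, concerns the gene expression that follows the transgene. Cdkn2a and Trp53 rose, to 14.0 and 1.74 times the WT mean, while Sesn1, Mdm2 and Mdm4 fell, to 0.497, 0.767 and 0.686 times the WT mean. The targets Cdkn1a, Ccng1, Zmat3 and Trp53inp1 did not pass the test. In limma, 5 of the 9 genes were called at an adjusted p under 0.05, 2 higher and 3 lower, in a comparison in which 55.8% of all 12704 genes tested were called, 29.1% higher and 26.7% lower. The number called was therefore close to the background. With scaling by total coverage, 42.0% of the called genes were higher, against 52.1% with the scaling used. The groups did not overlap for 3 of the 9, with Cdkn2a and Trp53 higher and Sesn1 lower in all 4 Eμ-Myc libraries, against 52.1% of all genes, 27.3% higher and 24.8% lower. The median log2 fold change of the 9 was 0.04, beside -0.05 over all genes tested.

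**Figure D1:**
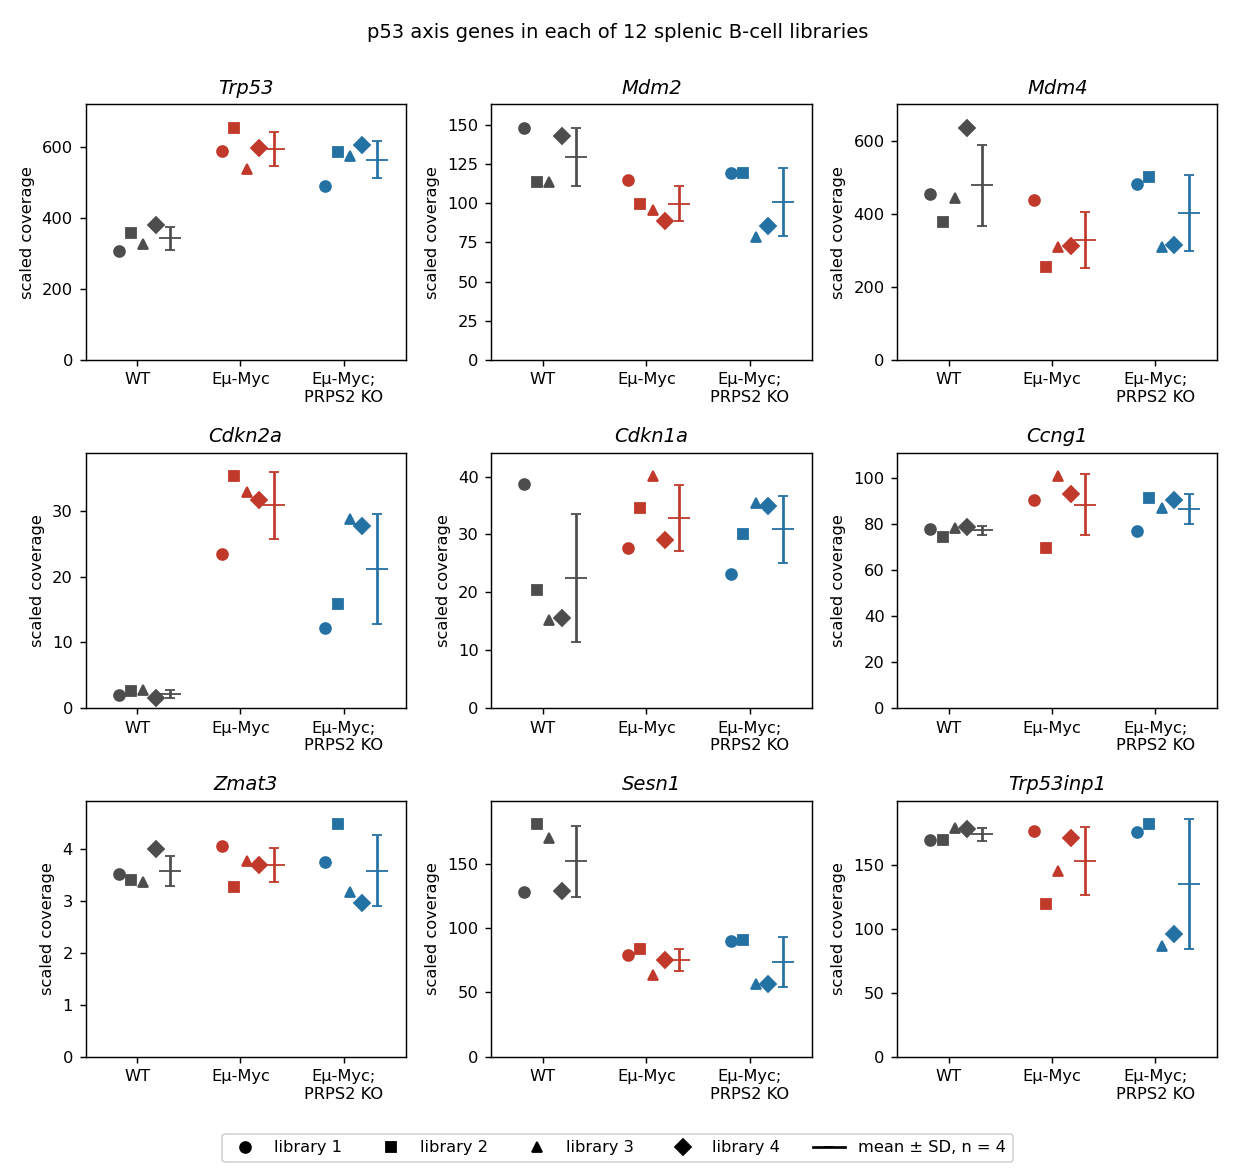
Scaled coverage (vertical axes, from 0) of each of the 9 genes in the 4 libraries of WT, Eμ-Myc and Eμ-Myc; PRPS2 KO. Each point is a library, its shape gives the library number, and the bar beside the points is the mean ± SD (n = 4). Cdkn2a lies between 1.49 and 2.79 in WT and above 12 in every library of the other groups, Trp53 is higher and Sesn1 lower in both transgenic groups, and Zmat3 stays between 2.96 and 4.47 in all 12 libraries.

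Cdkn2a (chr4:89274473-89294619), the source of ARF, was listed in WT libraries 1 to 4 at a scaled coverage of 1.97, 2.55, 2.79 and 1.49. In Eμ-Myc it stood at 23.5, 35.3, 32.8 and 31.7. Every Eμ-Myc library was above every WT library, and library 1 was the lowest of its group. The means were 2.20 ± 0.588 and 30.8 ± 5.13 (SD, n = 4), and limma put the log2 fold change at 3.55 (SE 0.21, adjusted p 3.63e-06). Because WT coverage was low, the size of the change moved with the constant added before taking logs, from 2.96 with 2 to 3.77 with 0.1.

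Trp53 (chr11:69580348-69591873), which encodes p53 itself, stood at 307, 357, 326 and 378 in WT and at 587, 653, 538 and 597 in Eμ-Myc. The lowest Eμ-Myc library lay well above the highest WT library. The means were 342 ± 31.8 and 594 ± 47.5 (SD, n = 4), and the log2 fold change was 0.80 (SE 0.10, limma adjusted p 2.05e-04). The calls of Cdkn2a, Trp53 and Sesn1 held under every alternative in which the gene was tested, each library left out in turn included. Cdkn2a was not tested where a coverage of at least 10 was required in every library.

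Mdm2 (chr10:117688875-117710758), the ubiquitin ligase that acts on p53 and is itself a p53 target, stood at 148, 114, 114 and 143 in WT and at 115, 99.3, 95.7 and 88.5 in Eμ-Myc. The groups met at Eμ-Myc library 1, which lay just above WT libraries 2 and 3. The means were 130 ± 18.5 and 99.6 ± 11.2 (SD, n = 4), and the log2 fold change was -0.38 (SE 0.13, limma adjusted p 0.0309). This call was near the threshold. It was lost with the fold change unchanged when all 12 libraries were fitted together (adjusted p 0.0803). It was also lost without WT library 1 (-0.31, adjusted p 0.0759) or 4 (-0.33, 0.0734) and without Eμ-Myc library 2 (-0.38, 0.0518), 3 (-0.36, 0.0773) or 4 (-0.32, 0.0904). With WT libraries 1 and 4, the highest in T-cell and NK-cell marker sums, both left out, the log2 fold change was -0.20 with an adjusted p of 0.226.

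Mdm4 (chr1:132986105-133030587), the relative of Mdm2 that restrains p53, stood at 455, 379, 444 and 637 in WT and at 438, 255, 310 and 312 in Eμ-Myc. Library 1 was again the highest of the Eμ-Myc group and lay within the WT range. The means were 479 ± 111 and 329 ± 77.6 (SD, n = 4), and limma gave a log2 fold change of -0.54 (SE 0.20, adjusted p 0.0399). This call was near the threshold too, and was lost with the fold change unchanged with no filter on low values (adjusted p 0.0514) and with all 12 libraries in 1 fit (0.0680). It was also lost without WT library 1 (-0.56, adjusted p 0.0627), 3 (-0.57, 0.0620) or 4 (-0.40, 0.0891) and without Eμ-Myc library 2 (-0.43, 0.0999), 3 (-0.52, 0.0871) or 4 (-0.53, 0.0837). Leaving out WT libraries 1 and 4 together gave -0.35 with an adjusted p of 0.194. All 8 T-cell markers and all 6 NK-cell markers were called lower in Eμ-Myc than in WT, and none of the 8 myeloid markers was called. The part of these cells in the values of Mdm2 and Mdm4 was not tested. With WT libraries 1 and 4 left out, Trp53 and Sesn1 had log2 fold changes of 0.79 and -1.22, close to or beyond their values over all libraries.

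Sesn1 (chr10:41810574-41908436), a target of p53 whose product, sestrin 1, acts in the stress response and restrains mTORC1 signalling, stood at 128, 180, 170 and 129 in WT. In Eμ-Myc the values were 79.2, 83.4, 63.5 and 75.1, all below the lowest WT library. The means were 152 ± 27.3 and 75.3 ± 8.55 (SD, n = 4), and the log2 fold change was -0.99 (SE 0.14, limma adjusted p 4.10e-04). Sesn1 was the only one of the 5 targets that was called.

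Cdkn1a (chr17:29090979-29100722) encodes p21, the cyclin-dependent kinase inhibitor through which p53 halts the cell cycle. It stood at 38.7, 20.4, 15.3 and 15.5 in WT and at 27.6, 34.6, 40.1 and 29.1 in Eμ-Myc. WT library 1 was inside the Eμ-Myc range and the other 3 were below it. The means were 22.5 ± 11.0 and 32.8 ± 5.68 (SD, n = 4), and limma gave a log2 fold change of 0.63 (SE 0.28, adjusted p 0.0845), which did not pass. Without WT library 1, which also had the highest myeloid marker sum of all libraries, the log2 fold change was 0.92 (adjusted p 0.00250). Weighting libraries by quality gave 0.91 (adjusted p 0.00378), in a fit that called 8886 of all 12704 genes. That fit gave WT library 1 a low weight, 0.408, so it is not independent of leaving this library out. The part of myeloid cells in the Cdkn1a value of WT library 1 was not tested.

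Ccng1 (chr11:40748552-40755309), which encodes cyclin G1, a partner of a phosphatase that acts on MDM2, varied little in WT, at 78.0, 74.5, 78.3 and 78.7. In Eμ-Myc it stood at 90.4, 69.8, 101 and 92.9, so that library 2 was below and the other 3 above all WT libraries. The log2 fold change was 0.18 (SE 0.12, limma adjusted p 0.221), and without Eμ-Myc library 2 it was 0.29 (adjusted p 0.0149). Weighting libraries by quality gave 0.33 (adjusted p 0.00640), in the fit that called 8886 of all 12704 genes and gave Eμ-Myc library 2 a weight of 0.321.

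Trp53inp1 (chr4:11156441-11174379), whose product promotes p53-dependent cell death, stood at 169, 170, 179 and 178 in WT and at 177, 119, 145 and 171 in Eμ-Myc. Eμ-Myc libraries 2 and 3 lay below the WT range. The log2 fold change was -0.20 (SE 0.13, limma adjusted p 0.208). Zmat3 (chr3:32334792-32365665), an RNA-binding zinc finger protein induced by p53, was low in every group, at 3.52, 3.40, 3.37 and 4.00 in WT and at 4.05, 3.26, 3.77 and 3.69 in Eμ-Myc. Its log2 fold change was 0.04 (SE 0.16, limma adjusted p 0.836), with a 95% interval from -0.32 to 0.40, and scaling by total coverage turned the sign to -0.08.

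**Figure D2:**
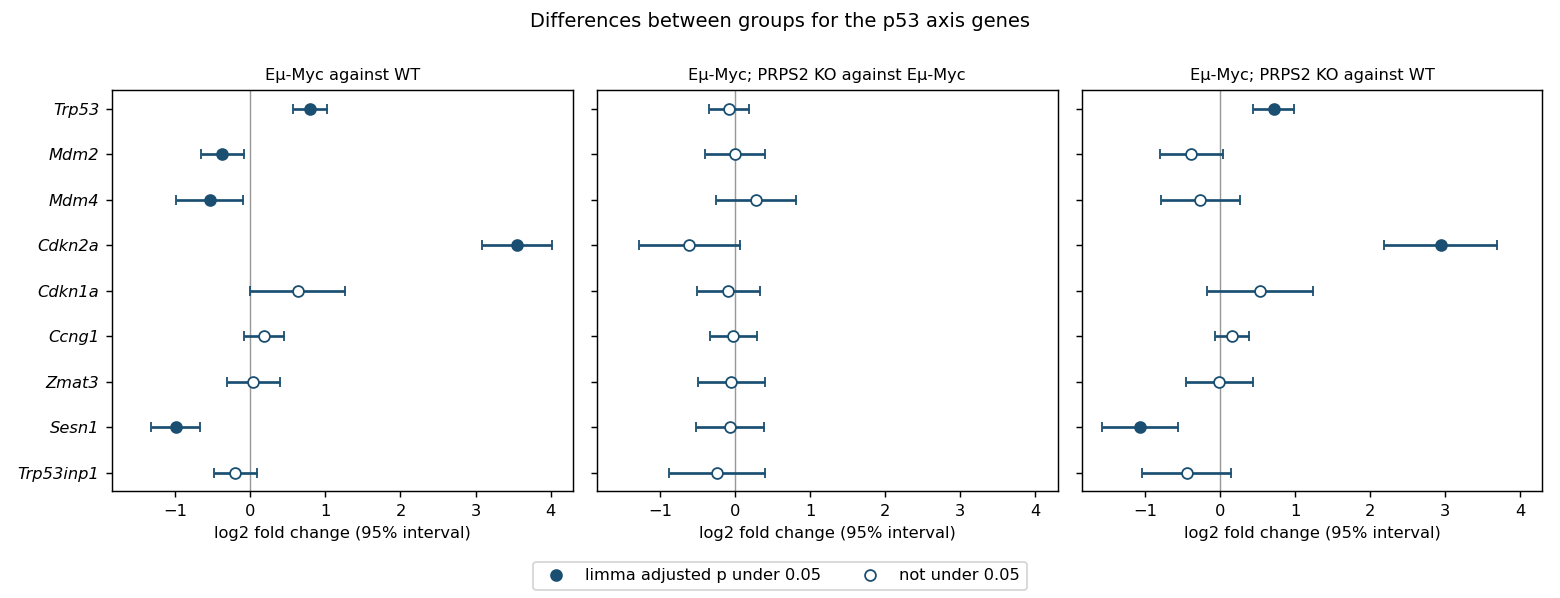
Log2 fold change of the 9 genes with its 95% interval from limma (horizontal axes) in the 3 comparisons of 4 libraries against 4. Filled points had an adjusted p under 0.05. Eμ-Myc against WT has 5 filled points, Eμ-Myc; PRPS2 KO against WT has 3, and Eμ-Myc; PRPS2 KO against Eμ-Myc has 0, where the interval of Cdkn2a reaches from -1.28 to 0.07.

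The knockout group was then compared with Eμ-Myc, which addresses whether loss of PRPS2 alters expression in B cells that carry the transgene. None of the 9 genes passed the test, and limma called 1 gene of the 12535 tested, Prps2, or 0.00798%. At an unadjusted p under 0.05 there were also 0 of the 9, beside 0.981% of all genes. The groups overlapped for all 9, while 1.43% of all genes did not overlap. The largest difference was that of Cdkn2a, whose knockout mean was 0.685 times the Eμ-Myc mean. The median log2 fold change of the 9 genes was -0.07, beside -0.05 over all genes.

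Cdkn2a in knockout libraries 1 to 4 stood at 12.2, 15.8, 28.8 and 27.7. Libraries 1 and 2 were below every Eμ-Myc library, and libraries 3 and 4 were inside the Eμ-Myc range. Set against the Eμ-Myc library of the same number, which stood at 23.5, 35.3, 32.8 and 31.7, the knockout library was lower in all 4 pairs. These pairs were inferred from the values alone, and the labels do not state them. The mean was 21.1 ± 8.38 (SD, n = 4), and the log2 fold change against Eμ-Myc was -0.61 (SE 0.29, unadjusted p 0.0714, limma adjusted p 1.00, and also 1.00 with the replicate number as a block). In an alternative chosen after the data were seen, libraries 3 and 4 were left out and the value was -1.11 with an adjusted p of 0.0371. With libraries 1 and 2 left out it was -0.11, and over all alternatives the adjusted p ran from 0.0371 to 1.00. Libraries 1 and 2 are those with the higher T-cell, NK-cell and myeloid sums and the lower Myc coverage, and the part of either in the Cdkn2a values was not tested.

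Trp53 stood at 488, 586, 572 and 605 in the knockout libraries, a mean of 563 ± 51.6 (SD, n = 4) that lay within the spread of the Eμ-Myc libraries. Its log2 fold change was -0.08 with a 95% interval from -0.34 to 0.19 (limma adjusted p 1.00). Mdm2 stood at 119, 120, 78.5 and 85.3, with libraries 1 and 2 above and libraries 3 and 4 below all Eμ-Myc libraries. The mean was 101 ± 21.8, the log2 fold change was -0.00499 with an interval from -0.40 to 0.39, and its sign turned under other scalings. Mdm4 was above all Eμ-Myc libraries in libraries 1 and 2, at 483 and 501, and inside their range in libraries 3 and 4, at 309 and 316. Its log2 fold change was 0.28 with an interval from -0.25 to 0.81.

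The targets Sesn1 and Trp53inp1 were also divided within the knockout group. Sesn1 stood at 90.2 and 90.6 in libraries 1 and 2, above all Eμ-Myc libraries, and at 56.6 and 56.2 in libraries 3 and 4, below all of them. The group means of Sesn1, 73.4 ± 19.6 and 75.3 ± 8.55 (SD, n = 4), were close, with a log2 fold change of -0.07 and an interval from -0.53 to 0.39. Trp53inp1 stood at 176, 182, 86.6 and 95.8, so that its SD was 50.8, beside 26.5 in Eμ-Myc and 5.22 in WT. Its log2 fold change was -0.24 with an interval from -0.89 to 0.40 (limma adjusted p 1.00). With knockout libraries 1 and 2 left out, Trp53inp1 was at -0.73 (adjusted p 0.0210), and with libraries 3 and 4 left out it was at 0.24 (adjusted p 0.348). Weighting libraries by quality gave -0.28 (adjusted p 0.0247) for Sesn1 and -0.71 (0.00166) for Trp53inp1, in a fit that called 7000 of all 12535 genes.

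The other targets were less divided. Cdkn1a stood at 23.1, 30.1, 35.5 and 34.9 in the knockout libraries, with a log2 fold change of -0.09 and an interval from -0.51 to 0.33. Ccng1 stood at 77.2, 91.3, 87.1 and 90.6, a log2 fold change of -0.02 with an interval from -0.33 to 0.29 whose sign turned under other scalings. Zmat3 stood at 3.74, 4.47, 3.17 and 2.96, a log2 fold change of -0.05 with an interval from -0.49 to 0.39. With library quality weights Zmat3 was at -0.27 (limma adjusted p 0.0481). The intervals give the range of differences that the data allow, and a missed threshold does not show that the groups were alike.

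**Figure D3:**
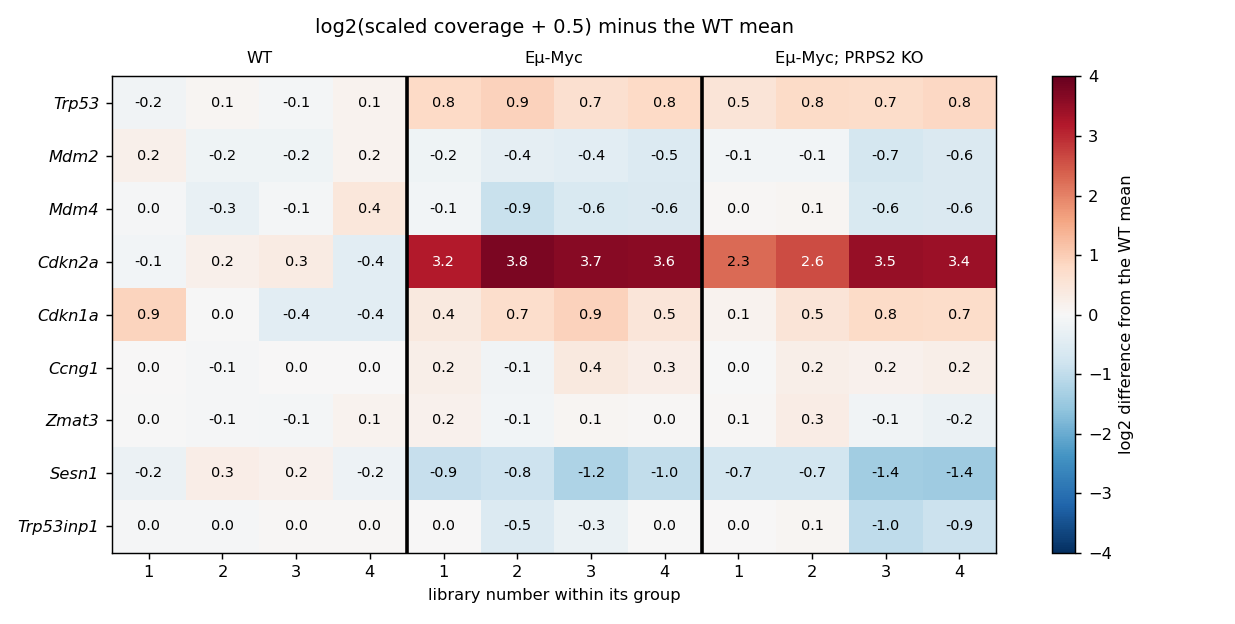
Log2(scaled coverage + 0.5) of the 9 genes in each of the 12 libraries (columns, by group and library number) minus the mean of the 4 WT libraries, in colour and as a number in each cell. The row of Cdkn2a is above 2 in all 8 transgenic libraries, and in the knockout group libraries 1 and 2 differ from libraries 3 and 4 in Mdm2, Mdm4, Cdkn2a, Sesn1 and Trp53inp1.

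Against WT, the knockout group had higher Cdkn2a and Trp53 and lower Sesn1, at 9.61, 1.65 and 0.484 times the WT mean. This comparison and that of Eμ-Myc share the 4 WT libraries, so their values stand side by side and are not independent. In limma 3 of the 9 genes were called, 2 higher and 1 lower, in a comparison with 30.7% of all genes called, 19.7% higher and 11% lower. The same 3 genes did not overlap between the groups, against 38.2% of all genes, 22% higher and 16.2% lower. The log2 fold change of Cdkn2a was 2.94 (SE 0.33, limma adjusted p 0.00814), beside 3.55 in Eμ-Myc. That of Trp53 was 0.72 (SE 0.12, adjusted p 0.00955), beside 0.80. That of Sesn1 was -1.06 (SE 0.22, adjusted p 0.0172), beside -0.99.

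The 6 other genes did not pass against WT in the knockout group. Mdm2 had a log2 fold change of -0.38 (limma adjusted p 0.123), the same size as in Eμ-Myc with a wider spread between libraries, and Mdm4 had -0.26 (adjusted p 0.357). Cdkn1a was at 0.54 (adjusted p 0.178), Ccng1 at 0.16 (adjusted p 0.210), Trp53inp1 at -0.44 (adjusted p 0.184) and Zmat3 at -0.01 (adjusted p 0.978), a value whose sign turned with median-of-ratios scaling. Several of these values changed with pairs of knockout libraries left out. Mdm2 was at -0.65 (adjusted p 0.00602) without libraries 1 and 2 and at -0.11 (0.688) without libraries 3 and 4. In the same fits Mdm4 was at -0.59 (0.0331) and 0.066 (0.872), and Trp53inp1 at -0.93 (1.25e-04) and 0.041 (0.827). Weighting libraries by quality gave adjusted p-values under the threshold for 5 of the 6, at -0.51 (6.13e-04) for Mdm2, -0.45 (0.00440) for Mdm4, 0.85 (0.00108) for Cdkn1a, 0.22 (0.00419) for Ccng1 and -0.87 (3.22e-05) for Trp53inp1, in a fit that called 10607 of all 12692 genes. With 1 library left out at a time Trp53inp1 ran from -0.61 to -0.26, nearest to 0 without knockout library 3, Mdm4 from -0.38 to -0.12, nearest to 0 without WT library 4, and Cdkn1a from 0.39 to 0.83, highest without WT library 1, and none of the 3 passed. The call of Sesn1 was lost without WT library 2 (-0.97, adjusted p 0.0563) or 3 (-1.004, 0.0566) and without knockout library 3 (-0.95, 0.0503) or 4 (-0.95, 0.0512). In these 4 fits the genes called over all numbered 786, 774, 864 and 832, in place of 3901. With WT libraries 1 and 4 both left out, an alternative chosen after the data were seen, limma called 4 genes in all and none of the 9, with Cdkn2a at 2.68 (adjusted p 0.0672), Trp53 at 0.72 (adjusted p 0.0708) and Sesn1 at -1.29 (adjusted p 0.0744).

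In order of mean level, Trp53 and Cdkn2a were highest in Eμ-Myc, then the knockout group, then WT. For Trp53 the step between the transgenic groups was within the spread of the libraries. For Cdkn2a the knockout mean of 21.1 lay below the lowest Eμ-Myc library, at 23.5, while the groups overlapped and the step did not pass the test. Mdm2 and Mdm4 were highest in WT, followed by the knockout group and Eμ-Myc, and neither gene's neighbouring groups were separated without overlap. The means of Sesn1 and Trp53inp1 stood in the order WT, Eμ-Myc, knockout group from highest to lowest, with no overlap of Sesn1 between WT and either transgenic group. Between the transgenic groups the log2 fold change of Sesn1 turned to 0.042 without knockout library 3, 0.046 without 4 and 0.27 without both. Trp53inp1 overlapped at each step and passed in no comparison over all libraries weighted alike. Its place in the order of means changed with the knockout libraries kept. With library quality weights Trp53inp1 passed in the knockout group against Eμ-Myc (-0.71, limma adjusted p 0.00166) and against WT (-0.87, 3.22e-05). Cdkn1a and Ccng1 followed the order of Trp53 with overlapping groups, and the means of Zmat3, 3.57 for WT, 3.69 for Eμ-Myc and 3.59 for the knockout, were within their spread.

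The inhibitors were next set against p53 within each library, as ratios chosen after the data were seen and with the changes of these genes known, so that they are a description and carry no test. A ratio within a library does not depend on the scaling, and only its change between groups is read, since coverage of different genes need not be on the same scale. Mdm2 coverage was 48.4%, 31.9%, 34.9% and 37.9% of Trp53 coverage in the WT libraries, 19.6%, 15.2%, 17.8% and 14.8% in Eμ-Myc, and 24.4%, 20.4%, 13.7% and 14.1% in the knockout group. Every transgenic library was below every WT library. The means were 38.3 ± 7.17%, 16.9 ± 2.25% and 18.2 ± 5.18% (SD, n = 4 each).

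Mdm4 coverage was 148%, 106%, 136% and 168% of Trp53 coverage in WT, 74.6%, 39.0%, 57.6% and 52.3% in Eμ-Myc, and 99.0%, 85.5%, 54.0% and 52.2% in the knockout group, again with no overlap with WT. Cdkn2a coverage was 1.33%, 2.24%, 2.45% and 1.04% of Mdm2 coverage in WT, 20.4%, 35.6%, 34.3% and 35.9% in Eμ-Myc, and 10.2%, 13.2%, 36.7% and 32.4% in the knockout group. The knockout group and Eμ-Myc overlapped in all 3 ratios. On the log2 scale the Mdm2 to Trp53 ratio differed from WT by -1.17 for Eμ-Myc and -1.10 for the knockout group, the Mdm4 to Trp53 ratio by -1.34 and -0.98, and the Cdkn2a to Mdm2 ratio by 4.21 and 3.60.

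**Figure D4:**
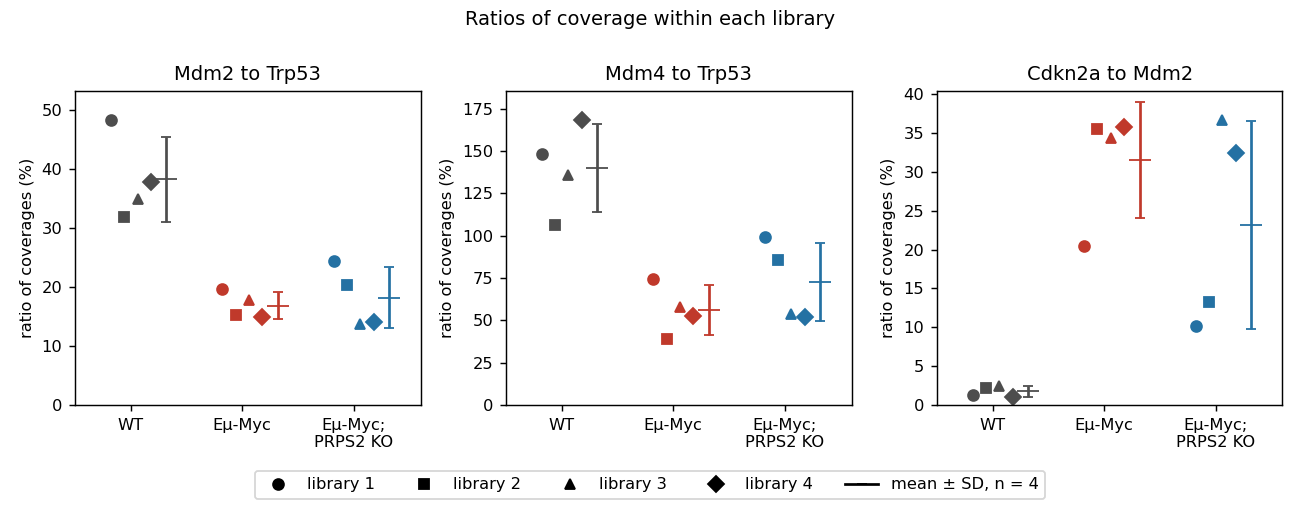
Coverage of Mdm2 and Mdm4 as a percentage of Trp53 coverage, and of Cdkn2a as a percentage of Mdm2 coverage, within each library (vertical axes, from 0). Points are libraries with their number as the shape, and bars are the mean ± SD (n = 4). The WT libraries do not overlap with either transgenic group in any panel, and knockout libraries 1 and 2 stand apart from 3 and 4.

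Other genes of the pathway were taken from 3 lists. The first held 34 regulators of p53, MDM2 or Cdkn2a, of which 32 were tested in each comparison. In Eμ-Myc against WT 12 rose and 11 fell, in a comparison with 29.1% of all genes called higher and 26.7% lower, and the median log2 fold change was -0.01, beside -0.05 over all genes. The largest increases were those of Chek1, the checkpoint kinase that phosphorylates p53, at 3.04 (SE 0.14, limma adjusted p 2.00e-06), of Ezh2, a Polycomb methyltransferase that silences Cdkn2a, at 2.21, and of E2f1, a transcription factor known to activate ARF, at 1.90. The largest decreases were those of Cbx7, a Polycomb reader that also represses Cdkn2a, at -1.84 (SE 0.17, adjusted p 3.18e-05), of Ppp1r13b, which encodes the p53 cofactor ASPP1, at -0.91, and of Crebbp, an acetyltransferase of p53, at -0.77.

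Other regulators called higher included Npm1 at 1.59, Chek2 at 0.98, Ppp1r13l at 0.74, Rpl11 at 0.55, Hipk2 at 0.54, Rpl5 at 0.46, Cdkn2aipnl at 0.37 and Cop1 at 0.36. Ppp1r13l coverage was low, averaging 0.903 over the WT libraries and 1.76 over the Eμ-Myc libraries. With a WT mean under the filter value of 1, Ppp1r13l was tested mainly through the Eμ-Myc libraries, and its fold change is uncertain. Npm1 encodes a nucleolar protein that binds ARF, and Rpl5 and Rpl11 encode ribosomal proteins that bind MDM2. Genes of this kind have processed pseudogenes with which reads can be shared, so their values are uncertain. The others called lower were Ep300 at -0.68, Dmtf1 at -0.61, Trim24 at -0.58, Rchy1 and Trip12 at -0.55 each, Zbtb7a at -0.50, Bmi1 at -0.36 and Cdkn2aip at -0.28. Dmtf1 is an activator of ARF transcription, and Bmi1 is a Polycomb repressor of Cdkn2a. Atm, the kinase of the DNA break response, and Usp7, which removes ubiquitin from MDM2 and p53, were among the 9 regulators that were not called.

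The second list held 40 further p53 targets, of which 37 were tested in Eμ-Myc against WT. Of these 12 rose and 9 fell, with a median of -0.03, and both counts again stand beside 29.1% and 26.7% of all genes. Gtse1, a cell cycle protein that acts on p53, rose by 2.81 (SE 0.22, limma adjusted p 1.34e-05), and Ckap2, which acts at the mitotic spindle, by 2.62. Pcna, the sliding clamp of DNA replication, rose by 1.88 and Rps27l, a ribosomal protein relative, by 1.69. Gtse1, Ckap2 and Pcna thus act in division or replication, like the cell cycle genes of the third list below, whose median was 2.92. The part of p53 in the rise of these targets was not tested. Fas, a death receptor, fell by 1.69 (SE 0.34, adjusted p 0.00275), Ephx1, an epoxide hydrolase, fell by 1.50, Trp53inp2, a relative of Trp53inp1, fell by 1.21, and Sfn, the 14-3-3 sigma protein of cell cycle arrest, fell by 1.12. The calls of Fas and Ephx1 were lost when all 12 libraries were fitted together (adjusted p 0.0540 and 0.0915). That of Trp53inp2 was lost there too (0.119), without Eμ-Myc library 3 (-1.14, 0.0740) or 4 (-0.98, 0.0811), and with WT libraries 1 and 4 both left out (-0.87, 0.0621).

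The other targets called higher were Pidd1 at 1.65, Gls2 at 1.29, Phlda3 at 0.81, Fdxr at 0.72, Aen at 0.64, Cyfip2 at 0.60, Bax at 0.54 and Ppm1d at 0.43 on the log2 scale. Gls2 coverage was low, averaging 0.544 over the WT libraries and 2.00 over the Eμ-Myc libraries. Its WT mean lay under the filter value of 1, so Gls2 was tested mainly through the Eμ-Myc libraries and its fold change is uncertain. Phlda3 was low as well, with a WT mean of 1.61 and an Eμ-Myc mean of 3.20. Bax encodes a protein that permeabilises mitochondria in cell death, and Ppm1d a phosphatase that acts on p53. The others called lower were Sesn2, a relative of Sesn1, at -0.98, Ddb2, a DNA damage sensor, at -0.57, Btg2 at -0.48, Polk at -0.43 and Aldh4a1 at -0.31. Bbc3 and Pmaip1, which encode PUMA and NOXA, were among the 16 targets that were not called, with 0.36 and -0.66.

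The third list held 16 cell cycle genes that p53 is known to repress through p21 and the DREAM complex. All 16 rose in Eμ-Myc against WT, beside 29.1% of all genes called higher, with a median of 2.92, led by Ccnb1, the mitotic cyclin B1, at 3.42 (SE 0.28, limma adjusted p 1.90e-05) and Cdk1, its kinase partner, at 3.14. In the knockout group against WT all 16 were again called higher, beside 19.7% of all genes, with a median of 2.84, led by Ccnb1 at 3.28 and Top2a, a topoisomerase of dividing cells, at 3.11. With WT libraries 1 and 4 both left out, 0 of the 16 were called there, beside 4 of all 12367 genes. In that fit Ccnb1 was at 3.61 (limma adjusted p 0.0674) and Top2a at 3.30 (0.0672).

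In the knockout group against Eμ-Myc, limma called 0 of 32 regulators, 0 of 37 targets and 0 of 16 DREAM genes, with medians of -0.01, -0.13 and -0.11 beside -0.05 over all genes. At an unadjusted p under 0.05 there was 1 gene in the 3 lists, Polk, a translesion polymerase, at 0.33 (unadjusted p 0.0283, adjusted p 1.00). The genes with the next smallest p, none of which passed, were Dcxr at -0.39 among the targets, Atm at 0.38 and Cdkn2b at -0.69 among the regulators, and Birc5 at -0.21 and Cdc25c at -0.21 among the DREAM genes. With library quality weights, which called 7000 of all 12535 genes, Polk (0.26, adjusted p 0.0155), Dcxr (-0.62, 0.00167), Atm (0.42, 0.0101) and Cdkn2b (-1.41, 0.00253) passed. Birc5 passed there with the sign turned (0.37, 0.0266), and Cdc25c did not pass (0.25, 0.185). Dcxr also passed without knockout libraries 1 and 2 (-0.75, 0.0322). In the knockout group against WT, 8 regulators rose and 5 fell of 32 tested, with a median of 0.07, and 10 targets rose and 1 fell of 38, with a median of -0.10. Over all genes 19.7% were called higher and 11% lower there, with a median of -0.07. The balance of the targets changed with the libraries kept, to 12 higher and 14 lower of 36 without knockout libraries 1 and 2. With 1 library left out at a time, 6 to 21 regulators and 5 to 22 targets were called, beside 774 to 6748 genes in all.

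Chek1 rose by 2.93, Ezh2 by 2.06 and E2f1 by 1.72 in the knockout group against WT, and Cbx7, Cdkn2b and Rchy1 fell, with log2 fold changes of -1.93, -1.35 and -0.76. No regulator or target was called with WT libraries 1 and 4 both left out, where Chek1 was at 2.95 (limma adjusted p 0.0691). Cdkn2b, the neighbour of Cdkn2a that encodes p15INK4b, had low coverage, with a mean of 0.521 ± 0.457 in the knockout group, against 1.94 ± 0.574 in WT (SD, n = 4). Of the targets, Gtse1 at 2.82, Ckap2 at 2.58, Gls2, a glutaminase, at 1.82 and Pcna at 1.69 had the largest increases, and Sfn was the one that fell, with -1.39. The part of p53 in the rise of Gtse1, Ckap2 and Pcna was not tested here either. Gls2 had low coverage, with means of 3.92 ± 3.18 in the knockout group and 0.544 ± 0.410 in WT, and the groups overlapped. With a WT mean under the filter value of 1, it was tested mainly through the knockout libraries. The call of Gls2 (adjusted p 0.0457) was lost with no filter (0.0550), with a pseudocount of 2 (1.07, 0.0578) and with the replicate number as a block (0.0804), and without WT library 1 (0.0691), 2 (0.103), 3 (0.106) or 4 (0.0894) and without knockout library 3 (0.111) or 4 (0.123). That of Cdkn2b (0.0382) was lost with a pseudocount of 0.1 (-2.14, 0.0612), and without WT library 1 (0.0881), 2 (0.0894), 3 (0.0950) or 4 (0.0533) and without knockout library 3 (0.10) or 4 (0.0934). Without knockout libraries 3 and 4 together Cdkn2b was at -0.79 (0.171). The calls of Sfn and Cbx7 were lost without WT library 2 (0.0651 and 0.0605), WT library 3 (0.0618 and 0.0595), knockout library 3 (0.0592 and 0.0506) or knockout library 4 (0.0552 and 0.0549), and that of Sfn also without WT library 4 (0.0510). In these fits with 1 library left out, 774 to 1658 genes were called over all, and the fold changes of the 4 genes kept their direction.

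**Figure D5:**
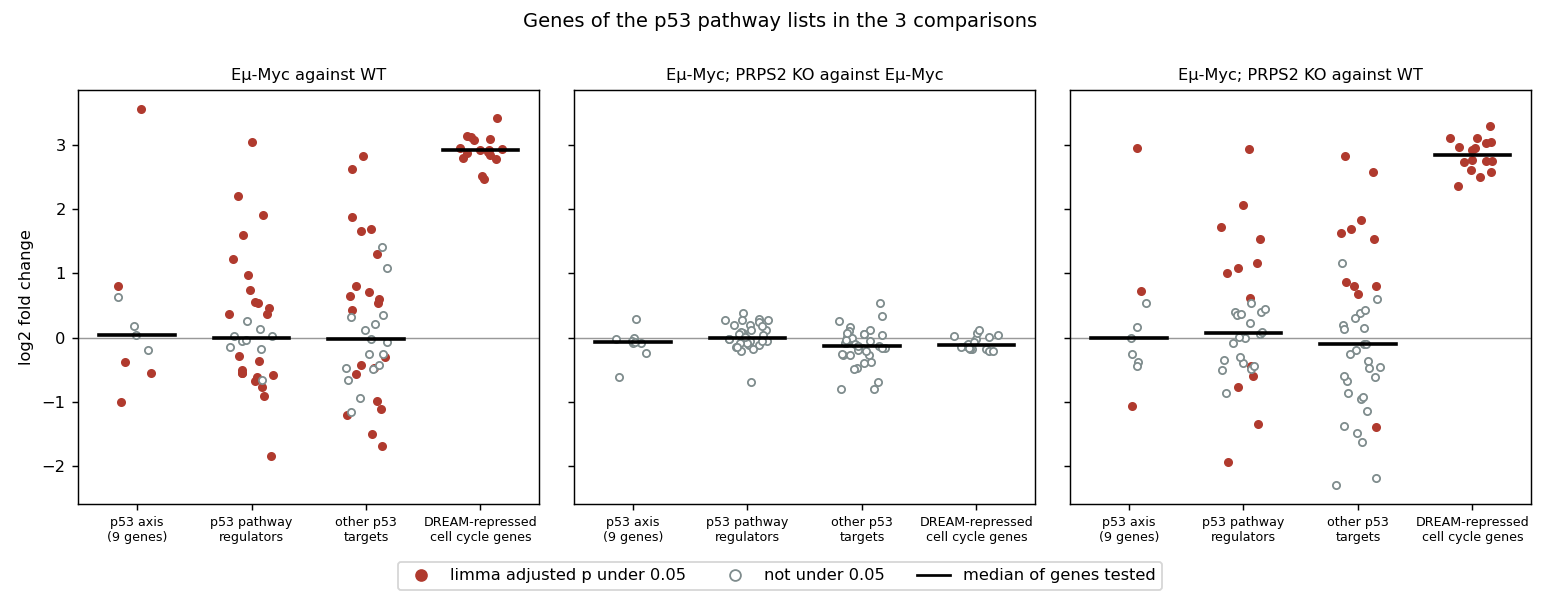
Log2 fold change (vertical axis) of each tested gene of the 9-gene axis and of the lists of regulators, other p53 targets and DREAM-repressed cell cycle genes in the 3 comparisons. Filled points had a limma adjusted p under 0.05 and horizontal lines are medians. Regulators and targets lie on both sides of 0 in Eμ-Myc against WT, the DREAM genes are all above 2, and no point is filled in the knockout group against Eμ-Myc.

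The genes whose pattern over the 12 libraries was most like that of 4 members were found from the root mean square difference of centred log2 values, among 9909 genes. For Trp53 they were Eef1g (0.0852) and Ddx39b (0.10), where the median over all candidates was 0.471. For Mdm2 they were Fmnl1 (0.0693) and Pcsk7 (0.0773), with a median of 0.468. For Cdkn2a they were Rcor2 (0.250) and Arvcf (0.254), with a median of 1.60, and for Cdkn1a Carhsp1 (0.150) and Vim (0.168), with a median of 0.544. Rcor2 averaged 3.97 in WT, 40.2 in Eμ-Myc and 38.0 in knockout libraries. The libraries of a group share its genotype, so these values describe a common pattern and carry no p.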

How the data were processed

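Groups follow the genotype label, with 4 of the 12 libraries each. Per the labels' protocols, polyadenylated RNA was extracted with TRIzol and a column kit and made into directional libraries. The authors deposited 1 file per library with a coverage signal per gene, given to 1 decimal, and since 91.6% of values above 0 were fractional, no count model was used. Per the submitters' processing notes, mm10, DESeq and R 4.3.3 were named without a role. The aligner, the annotation and how coverage was computed are not given in the sources used here, and neither is the use of strand or the handling of overlapping genes. In RefSeq, Mdm4 and Zmat3 each overlap a long non-coding gene, so their values are uncertain to that extent.

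Coverage was divided by 1 factor per library from an unweighted trimmed mean of log ratios (trimming 30% of the ratios and 5% of the means at either end, over genes with coverage of 1 or more). Genes that reached a scaled coverage of 1 in 4 or more of the 8 libraries were tested with limma 3.58.1 in R 4.3.3 on log2(scaled coverage + 0.5), so fold changes of low genes are understated. The 8 libraries of each comparison were fitted alone with a trended, robust empirical Bayes prior, two-sided, with Benjamini-Hochberg adjustment over all genes and a threshold of 0.05. The method was tested on simulated data. Promoter windows and gene positions came from RefSeq GRCm38.p6 and were read with Python 3.11.15 and pandas 2.3.3, with figures made in matplotlib 3.10.9.

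All 9 genes were named in each comparison, with up to 4 called targets, 3 regulators and 2 DREAM genes in each direction, or the 2 with the smallest p where none was called, and the 2 most similar profiles for 4 members among genes with a mean of at least 8. Further called regulators and targets of Eμ-Myc against WT were added after their values were seen. The genes and lists were chosen with earlier results of these data known, so their counts are descriptions.

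Replicate numbers 1 to 4 recur in every group. Across genes, the deviations of a knockout library and of the Eμ-Myc library with its number had an r of 0.658, 0.192, 0.254 and 0.607. Since each exceeded 0.1, the numbers were taken as pairs there, from the values alone. Against WT they ran from -0.422 to 0.397. Alternatives were 2 other scalings, filtering not at all or at 10 in every library, pseudocounts of 0.1 and 2, all 12 libraries in 1 fit, a replicate block, library quality weights and each library left out. Leaving out pairs of libraries was added after the data were seen.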

Additional observations from a re-analysis of the deposited data

How the results depend on the processing

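Of the log2 fold changes of the 9 genes under the alternatives, 138 of 160 kept their direction and their side of the threshold in Eμ-Myc against WT, 155 of 178 in the knockout group against WT and 141 of 170 in that group against Eμ-Myc. Zmat3 was not tested with a filter of 10 in every library, and Cdkn2a not in the comparisons with WT. Total coverage scaling moved the median of all genes by -0.14 in Eμ-Myc against WT and left 42.0% of called genes higher, against 52.1%. The depth behind the coverage is unknown, so only the spread between libraries limits the precision, and for Cdkn2a and Zmat3 the coverage is low. The cause of the changes below was not tested, except that the filter of 10 removed genes and left-out libraries reduce the sample.

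In Eμ-Myc against WT, 10 DREAM genes were tested and called with the filter of 10, and 3 of the 9 genes were called with all 12 libraries in 1 fit, beside 5561 of all 12704 genes. Leaving out 1 library at a time gave 3 to 5 of the 9, beside 5834 to 6922 genes in all. Zmat3 turned to -0.081 with total coverage scaling.

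In the knockout group against Eμ-Myc, library quality weights called 3 of the 9 genes (Zmat3 at -0.27, Sesn1 at -0.28 and Trp53inp1 at -0.71), 19 regulators, 26 targets and 15 DREAM genes, all 15 higher, and 7000 of all 12535 genes. They gave knockout libraries 1 to 4 weights of 0.0851, 0.132, 3.08 and 8.18. Signs turned there for Trp53 (0.079), Mdm4 (-0.026), Birc5 (0.37) and Cdc25c (0.25). Without knockout libraries 1 and 2 together the calls were 1 of the 9, 6 regulators, 16 targets and 10 DREAM genes, all 10 higher, beside 3167 of all 12169 genes, and signs turned for Mdm4 (-0.046), Cdkn1a (0.11), Ccng1 (0.018), Birc5 (0.44) and Cdc25c (0.47). Without knockout libraries 3 and 4 they were 1 of the 9, 2 targets and 2 DREAM genes, both lower, beside 454 of all 12416 genes, and signs turned for Mdm2 (0.27), Zmat3 (0.13), Sesn1 (0.27) and Trp53inp1 (0.24). Median-of-ratios scaling gave 0.037 for Mdm2 and 0.019 for Ccng1, and total coverage scaling 0.040 and 0.023. With 1 library left out, Mdm2 ran from -0.096 to 0.11, Cdkn1a from -0.17 to 0.040, Ccng1 from -0.13 to 0.045, Zmat3 from -0.15 to 0.027, Sesn1 from -0.18 to 0.046, Birc5 from -0.45 to 0.10 and Cdc25c from -0.49 to 0.11.

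In the knockout group against WT, 10 DREAM genes were tested and called with the filter of 10. Weights called 8 of the 9 genes, 28 regulators and 34 targets (16 higher and 18 lower), beside 10607 of all 12692 genes. Without knockout libraries 1 and 2 the calls were 6 of the 9, 25 regulators and 26 targets (12 higher and 14 lower), beside 8654 of all 12295 genes, and without libraries 3 and 4 they were 7 regulators and 7 targets, beside 1422 of all 12473. Without WT libraries 1 and 4 limma called 0 of the 9, 0 regulators, 0 targets and 0 DREAM genes, beside 4 of all 12367. Leaving out 1 library gave 6 to 21 regulators and 5 to 22 targets, beside 774 to 6748 genes in all. Zmat3 turned to 0.012 with median-of-ratios scaling, 0.18 without knockout libraries 3 and 4 and 0.059 without WT libraries 1 and 4, and ran from -0.11 to 0.069 with 1 library left out. Without knockout libraries 3 and 4, Mdm4 was at 0.066 and Trp53inp1 at 0.041.

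With the replicate number as a block, limma still called 0 of the 9 genes and 1 gene in all in the knockout group against Eμ-Myc. Where the numbers did not pair the samples, in the comparisons with WT, the block gave 8 regulators and 7 targets in the knockout group, with 1932 genes called over all in place of 3901. Knockout and WT libraries correlated best with their own number for 1 of 4 numbers, Eμ-Myc and WT libraries for 2 of 4, and knockout and Eμ-Myc libraries, taken as pairs by the correlations within pairs, also for 2 of 4. No other count of the 9 genes or the lists moved by over 1.5 times under the block.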
